A study of Mus musculus with 12 samples.

Results

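Genes through which cells sense foreign or misplaced nucleic acid and answer interferon were followed in a cultured mouse B cell lymphoma. The 46 genes were listed by name in 4 roles: 8 sensors and adaptors, 8 interferon regulatory factors (IRFs) and STATs, 4 chains of the interferon receptors and 26 interferon-stimulated genes. Of these, 39 had a normalized read count of at least 10 in at least 3 of 12 libraries and were tested, among 13111 of 23479 genes that did so. The other 7 (Tlr3, Usp18, Ifit1, Ifit3, Oasl2, Rsad2 and Ifi44) are given by library. Just inside that minimum lay Mx1, with 3 libraries at 10 or more, and just outside it lay Usp18, Ifit1, Ifit3, Oasl2, Rsad2 and Ifi44, with 2 each.

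All cells came from 1 lymphoma of a C57BL/6 mouse with the transgenes Eµ-Myc and Eµ-rtTA, in which the immunoglobulin heavy chain enhancer directs expression to B cells, and grew in medium with interleukin-7. TFEB cells carried a puromycin resistance retrovirus encoding TFEB, which drives transcription of genes for lysosomes and autophagy, with serine 211 changed to alanine and joined to ERT2. ERT2 is a mutant form of the part of the human estrogen receptor that binds hormone. Vector cells carried the retrovirus with no insert. The 4 groups of 3 libraries were TFEB cells in 4-hydroxytamoxifen (4-OHT, the ligand of ERT2), TFEB cells with vehicle, vector cells with 4-OHT and vector cells with vehicle, each for 4 days. The dose was 250 nM in the labels' protocols and 250 ng/mL in the design text, so its unit is uncertain. The labels do not say what the replicates were, so the p-values rest on the spread between libraries of a group, which may be technical. Differences between TFEB and vector cells cannot be told apart from differences of transduction and selection between the cultures.

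As background, RIG-I (Ddx58) and MDA5 (Ifih1) detect viral RNA in the cytosol and signal through MAVS, STING (Tmem173) relays the detection of cytosolic DNA, and Toll-like receptors 3, 7 and 9 detect nucleic acid in endosomes and lysosomes. These routes activate IRF3, IRF5 and IRF7, which induce type I interferon. Interferon then acts through its receptor, STAT2 and IRF9 to switch on genes that block viral replication, among them Oas, Mx, Ifit and Gbp genes. B cells are known to use the endosomal receptors TLR7 and TLR9 together with the B cell receptor.

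The libraries held 11849029 to 22109283 reads. Where a gene had a count of 0, its expected count was taken to be at most 3 reads, worth between 2.21 and 4.15 normalized counts. This floor covers counting error only. TFEB 4-OHT library 2 and vector 4-OHT library 2 stood apart in the number of genes with any read, 19250 and 19057, against 11390 to 16563 in the other 10. These 2 and TFEB vehicle library 1 (16471 genes), each the highest of its group, were also left out together, and calls that end without the 3 are named below. TFEB 4-OHT library 3 (16563 genes) and vector vehicle library 1, the highest of its group (15342 genes), were kept. Tfeb itself, which checks the labels, averaged 665 ± 72.6 in TFEB cells with 4-OHT, 1676 ± 249 in TFEB cells with vehicle, 221 ± 23.4 in vector cells with 4-OHT and 243 ± 17.7 in vector cells with vehicle (SD, n = 3 each). All 7 B cell markers passed the minimum, and their summed level was 24554 to 26720 in TFEB cells with 4-OHT, against 45728 to 48989 in TFEB cells with vehicle, 46445 to 54228 in vector cells with 4-OHT and 46436 to 48271 in vector cells with vehicle. Cd79a, 1 of the 7, did not share that lower level, with 9223, 8469 and 8884 in TFEB cells with 4-OHT against 8360, 6833 and 7444 in TFEB cells with vehicle. The summed level of 4 measured plasma cell markers, nearly all of it Xbp1, was 10714 to 11217 in TFEB cells with 4-OHT against 3391 to 4093 in TFEB cells with vehicle. The 4 did not move alike. Prdm1 had 52.7, 104.6 and 78.6 in TFEB cells with 4-OHT against 6.00, 30.9 and 16.6 in TFEB cells with vehicle. Igj had 7.53, 29.7 and 13.6 with 4-OHT against 49.7, 19.2 and 55.3 with vehicle in these cells, and Sdc1 did not exceed 24.5. The 6 measured macrophage markers summed to 35.9 to 176 and 28.8 to 45.6 in the same groups, the 5 markers of plasmacytoid dendritic cells to 24.3 to 37.4 and 26.7 to 101, and the 4 stromal markers to 11.8 to 203 and 3.20 to 73.3, with the highest sum in TFEB 4-OHT library 2. The summed levels of T cell, natural killer cell, neutrophil and erythroid markers were at most 54.2 in TFEB cells. Of the macrophage markers, Csf1r had 37.7, 25.8 and 24.3 in TFEB cells with 4-OHT against 16.3, 0 and 20.7 in TFEB cells with vehicle. Itgam reached 77.4 in TFEB 4-OHT library 2, and Mertk and Emr1 reached 41.5 and 34.4 in vector 4-OHT library 2. Cd14 and Lyz2 did not exceed 15.5. Of the plasmacytoid markers, Cox6a2 had 12.9, 3.87 and 5.82 in TFEB cells with 4-OHT against 34.3, 26.7 and 62.2 in TFEB cells with vehicle, and Siglech did not exceed 23.5 in any library. What part these levels had in the results was not tested.

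With 4-OHT, TFEB cells had higher levels of the RNA sensors Ifih1 and Ddx58, the endosomal receptors Tlr7 and Tlr9, both chains of the type I interferon receptor and 6 interferon-stimulated genes, and lower levels of STING, Irf5, Irf8, Ifngr2 and the guanylate-binding proteins Gbp2 and Gbp3. Of the 39 tested members, 15 rose, 6 fell and 18 were not called at an adjusted p under 0.05 (limma), whereas over all 13111 tested genes 13.7% rose and 13.9% fell. The median log2 change was 0.49 over the members and 0.04 over all tested genes. The members were chosen with earlier results of these data known. Their shares and medians, here and below, therefore cannot show that they stand out from all genes. Of the 39, Tlr7, Irf7, Mx1, Oas2 and Rtp4 reached the minimum only with the help of the libraries of TFEB cells with 4-OHT, so that high values there decided that they were tested, and 3 of these 5 (Tlr7, Irf7 and Oas2) are among the 15. Of the 34 others 12 rose and 6 fell, against 14.9% and 15.8% of the 11544 genes that reached the minimum without those libraries. By role, 4 of 7 sensors rose and 1 fell, 3 of 8 IRF and STAT genes rose and 2 fell, 2 of 4 receptor chains rose and 1 fell, and 6 of 20 interferon-stimulated genes rose and 2 fell. Bst2 was the called member whose 4-OHT and vehicle libraries overlapped. With 3 libraries against 3, a lack of overlap adds no further support to a call, here or below. The share of all tested genes without overlap was not counted. Without TFEB 4-OHT library 1 the count of risen members was 9, without TFEB 4-OHT library 2 it was 12, and without the 3 libraries left out together it was 10, while 6 to 7 members fell under those settings. Where leaving out a library or changing a setting ended a call, the adjusted p under that setting stands in parentheses below. Since these are bulk samples, fewer cells of a type and less RNA per cell cannot be told apart.

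**Figure D1:**
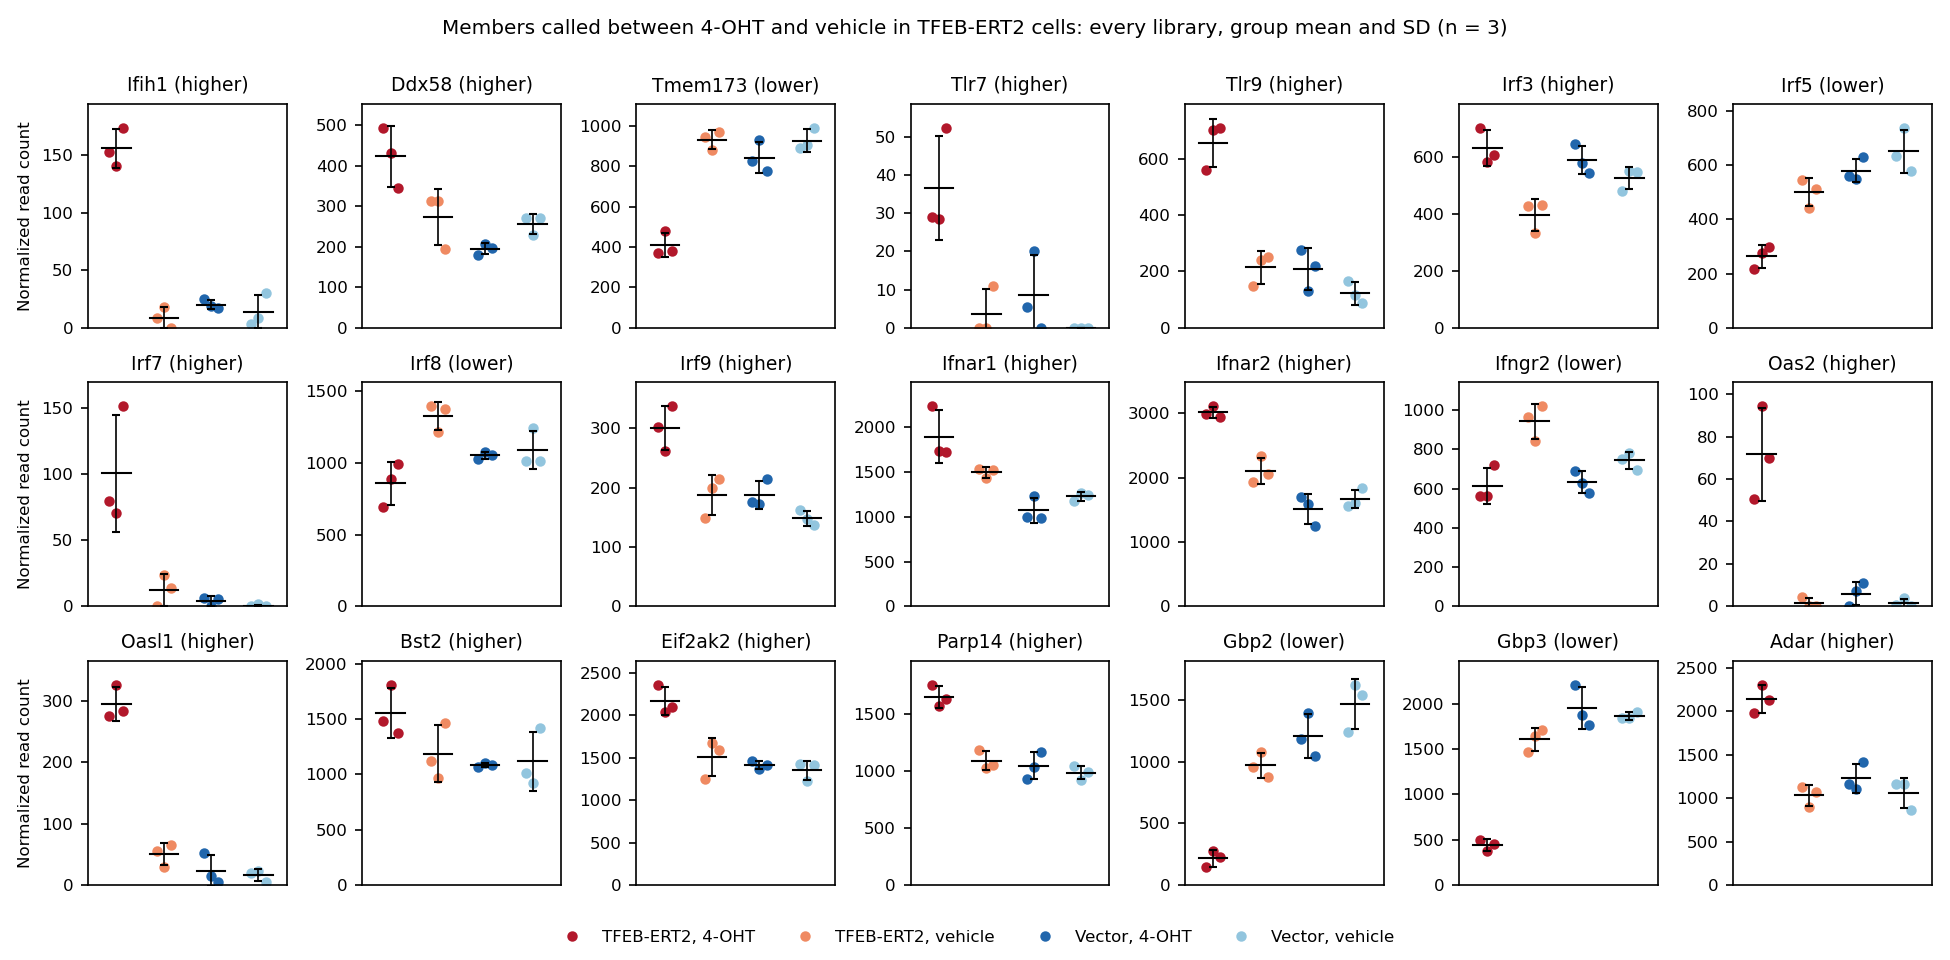
Normalized read counts of members called in TFEB cells (4-OHT against vehicle), with 1 point per library, a bar at each group mean, error bars of 1 SD (n = 3) and the groups from left to right TFEB 4-OHT, TFEB vehicle, vector 4-OHT and vector vehicle; the vertical axis of each panel starts at 0. The 3 Ifih1 values of TFEB cells with 4-OHT (141 to 174) all lie above those of the other 9 libraries (at most 30.5), and the 3 Gbp2 values (144 to 278) all lie below theirs (at least 874).

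Printed here are promoters of 6 called members, chosen as given below among those that hold short motifs known from interferon-stimulated genes. RefSeq promoters (250 bases before to 50 after a start site, build GRCm38.p6) matched 36 of the 46 members. Capitals mark GAAANNGAA, the core of the interferon-stimulated response element, and TTCNNNGAA, the element bound by STAT dimers, each searched on both strands. Where matches overlap they form 1 run of capitals. They are the 6 with the largest change in TFEB cells with 4-OHT among members that hold a motif and were called in any comparison, Oas1a being called only between the lines, and the windows lie at chr2:62646206-62646505 (minus strand), chr3:142620413-142620712 (plus strand), chr3:142559794-142560093 (plus strand), chr5:120907476-120907775 (minus strand), chr3:89730468-89730767 (plus strand) and chr4:40239776-40240075 (minus strand). The table lists 2 start sites for Gbp3 and 3 for Adar, of which 1 each is shown.
Ifih1: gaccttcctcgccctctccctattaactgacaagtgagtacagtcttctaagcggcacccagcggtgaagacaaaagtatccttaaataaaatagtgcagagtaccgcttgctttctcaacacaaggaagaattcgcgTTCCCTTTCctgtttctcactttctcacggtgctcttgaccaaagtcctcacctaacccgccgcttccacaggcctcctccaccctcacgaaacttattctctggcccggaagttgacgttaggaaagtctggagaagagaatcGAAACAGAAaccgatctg
Gbp2: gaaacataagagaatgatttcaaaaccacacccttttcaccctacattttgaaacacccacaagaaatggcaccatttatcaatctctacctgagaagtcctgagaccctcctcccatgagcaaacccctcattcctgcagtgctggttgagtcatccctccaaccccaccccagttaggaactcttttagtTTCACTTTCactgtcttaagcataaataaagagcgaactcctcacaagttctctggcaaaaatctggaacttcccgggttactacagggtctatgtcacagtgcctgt
Gbp3: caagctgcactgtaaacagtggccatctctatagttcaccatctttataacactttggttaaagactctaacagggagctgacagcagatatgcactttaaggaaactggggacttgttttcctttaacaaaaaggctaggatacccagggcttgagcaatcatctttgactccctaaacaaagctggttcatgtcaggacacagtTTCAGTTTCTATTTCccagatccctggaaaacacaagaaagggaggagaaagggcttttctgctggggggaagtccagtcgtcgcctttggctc
Oas1a: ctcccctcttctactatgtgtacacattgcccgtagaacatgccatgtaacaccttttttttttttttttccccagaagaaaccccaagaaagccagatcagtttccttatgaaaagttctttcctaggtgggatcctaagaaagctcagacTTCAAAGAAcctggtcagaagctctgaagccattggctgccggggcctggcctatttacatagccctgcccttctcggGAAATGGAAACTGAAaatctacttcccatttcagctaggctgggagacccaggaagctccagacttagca
Adar: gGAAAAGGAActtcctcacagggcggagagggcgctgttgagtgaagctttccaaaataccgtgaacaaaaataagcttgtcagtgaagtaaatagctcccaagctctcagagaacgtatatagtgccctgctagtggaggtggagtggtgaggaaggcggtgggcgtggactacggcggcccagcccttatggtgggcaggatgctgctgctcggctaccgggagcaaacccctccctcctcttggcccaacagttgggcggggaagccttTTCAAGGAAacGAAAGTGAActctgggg
Ddx58: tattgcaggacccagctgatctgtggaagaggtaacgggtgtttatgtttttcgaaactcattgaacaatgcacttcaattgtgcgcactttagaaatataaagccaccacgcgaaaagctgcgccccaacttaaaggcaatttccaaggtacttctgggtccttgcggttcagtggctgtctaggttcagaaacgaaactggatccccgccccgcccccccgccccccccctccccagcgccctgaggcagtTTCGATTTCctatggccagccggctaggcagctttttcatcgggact
The interferon element core was present in 17 of 36 members, against 9.76% of 27025 genes in the table, in 5 of the 12 matched members that rose (Adar, Bst2, Ddx58, Eif2ak2 and Ifih1) and in 2 of the 5 that fell (Gbp2 and Gbp3). Ifih1 had a match from base -112 to base -104 and another from base 33 to base 41, counted from the start site, and Gbp2 had 1 from base -58 to base -50. The STAT element was present in 12 of 36 members, against 9.55% of genes. CACGTG, the E-box that TFEB binds, and its longer form TCACGTG were present in 1 of 36 members, Trim25, against 8.09% and 4.29% of genes, and in 0 of the 12 that rose and 0 of the 5 that fell. A match is a description of letters in this window and does not show that a factor binds there.

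Among the sensors, Ifih1 (chr2:62595798-62646255, mm10), the cytosolic receptor of long double-stranded RNA, had 153, 141 and 174 normalized counts in TFEB cells with 4-OHT, against 8.57, 18.1 and 0 in TFEB cells with vehicle. It was 27.5-fold higher (log2 4.78 ± 0.89 SE, limma adjusted p = 9.09e-05), and its 2 groups did not overlap. The size of that fold rests on 1 TFEB vehicle library at 0: it was 11.5-fold (log2 3.53) without TFEB vehicle library 3 and 50.5-fold (log2 5.66) without TFEB vehicle library 2. Fold changes throughout are of the normalized count + 1. Vector cells had 24.7, 19 and 16.9 with 4-OHT and 2.95, 8.66 and 30.5 with vehicle. Ddx58, the receptor of RNA with a 5' triphosphate, had 494, 432 and 344 normalized counts in TFEB cells with 4-OHT, against 313, 314 and 194 in TFEB cells with vehicle. It was 1.57-fold higher (log2 0.65 ± 0.21 SE, limma adjusted p = 0.0201), with all 3 libraries with 4-OHT above all 3 with vehicle. The Ddx58 call was not made without TFEB 4-OHT library 1 (0.12) or 2 (0.0661) or without TFEB vehicle library 3 (0.156). Nor was Ddx58 called with array weights (0.105) or without the 3 libraries left out together (0.0666). Adjusted p for Ddx58 ran from 0.00534 to 0.156 over 25 alternatives.

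The endosomal receptors of single-stranded RNA (Tlr7) and of CpG DNA (Tlr9) were both called higher in TFEB cells with 4-OHT. The Tlr9 call was made under all 25 alternatives, whereas that of Tlr7 was lost under 13 of 24. Tlr9 had 559, 702 and 710.1 normalized counts in TFEB cells with 4-OHT, against 148, 242 and 252 in TFEB cells with vehicle. It was 3.12-fold higher (log2 1.64 ± 0.27 SE, limma adjusted p = 1.33e-05). Vector cells had 277, 131 and 221 with 4-OHT and 167, 116 and 87.1 with vehicle for Tlr9, so the lowest TFEB 4-OHT library was above all other libraries. Tlr7 had 29.1, 28.4 and 52.4 normalized counts in TFEB cells with 4-OHT, against 0, 0 and 11.1 in TFEB cells with vehicle. It was 15.8-fold higher (log2 3.98 ± 1.46 SE, limma adjusted p = 0.041). It was low throughout: 5 of 12 libraries reached 10, and its level in vector cells was 5.37, 20.2 and 0 with 4-OHT and 0, 0 and 0 with vehicle. As given above, high values in TFEB cells with 4-OHT decided that Tlr7 was tested. It was 10.4-fold higher without TFEB vehicle library 1 or 2 (log2 3.38 each), and 36.1-fold higher without TFEB vehicle library 3 (log2 5.18). The Tlr7 call was not made without TFEB 4-OHT library 1 (0.0907), 2 (0.0695) or 3 (0.161), without TFEB vehicle library 1 (0.131) or 2 (0.127), without vector 4-OHT library 1 (0.0546) or without vector vehicle library 2 (0.0505). Nor was Tlr7 called with a pseudocount of 0.5 (0.0551), with no filter on low values (0.0814), with the replicate block (0.058), with edgeR (0.297), with DESeq2 (0.127) or without the 3 libraries left out together (0.119). Adjusted p for Tlr7 ran from 0.00103 to 0.297 over 24 alternatives.

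Tmem173, which encodes STING, the adaptor that relays cytosolic DNA detection, was the sensor or adaptor that fell. It had 369, 480.2 and 383 normalized counts in TFEB cells with 4-OHT, against 947, 881 and 972 in TFEB cells with vehicle, and 824, 929 and 779 in vector cells with 4-OHT and 889, 904 and 992 in vector cells with vehicle. The libraries of TFEB cells with 4-OHT were lower than all 9 others, and the change was log2 -1.19 ± 0.13 SE, limma adjusted p = 5.86e-09. Mavs, the adaptor of RIG-I and MDA5, was not called (log2 -0.23 ± 0.13 SE, limma adjusted p = 0.195), and neither was Dhx58, the regulator of those receptors known as LGP2 (log2 1.01 ± 0.48 SE, limma adjusted p = 0.13). Dhx58 had 115, 81.3 and 106 normalized counts in TFEB cells with 4-OHT, against 72.0, 39.5 and 41.5 in TFEB cells with vehicle.

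Among the IRF genes, Irf3 and Irf7, which induce type I interferon, and Irf9, the DNA-binding partner of STAT2, were higher in TFEB cells with 4-OHT, and Irf5 and Irf8 were lower. Irf7, itself an interferon-stimulated gene, had 79.6, 71 and 151 normalized counts in TFEB cells with 4-OHT, against 0, 23.5 and 13.8 in TFEB cells with vehicle. Vector cells had 6.44, 0 and 5.92 with 4-OHT and 0, 1.57 and 0 with vehicle, so 7 of the 9 libraries outside TFEB cells with 4-OHT were under 10. High values in TFEB cells with 4-OHT thus decided that Irf7 was tested, as given above. It was 13.5-fold higher (log2 3.75 ± 1.25 SE, limma adjusted p = 0.0228). The fold was 5.04 (log2 2.33) without TFEB vehicle library 1, 24.9 (log2 4.64) without TFEB vehicle library 2 and 5.82 (log2 2.54) without the 3 libraries left out together. The Irf7 call was not made without TFEB 4-OHT library 1 (0.0616) or 3 (0.125) or without TFEB vehicle library 1 (0.181). Nor was Irf7 called with no filter on low values (0.103), with no variance trend (0.0533), with edgeR (0.0854) or without the 3 libraries left out together (0.105). Adjusted p for Irf7 ran from 4.31e-05 to 0.181 over 25 alternatives.

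Irf3 had 703, 583 and 605 normalized counts in TFEB cells with 4-OHT, against 427, 332 and 429.9 in TFEB cells with vehicle. It was 1.6-fold higher (log2 0.67 ± 0.15 SE, limma adjusted p = 0.000549). Vector cells had 644, 580.1 and 544 with 4-OHT and 482, 551 and 549 with vehicle for Irf3. All 6 of these libraries lay above the TFEB vehicle libraries, and their range overlapped that of TFEB cells with 4-OHT. Irf9 had 302, 262 and 337 normalized counts in TFEB cells with 4-OHT, against 149, 198 and 214 in TFEB cells with vehicle. It was 1.61-fold higher (log2 0.69 ± 0.23 SE, limma adjusted p = 0.0254). The Irf9 call was not made without TFEB 4-OHT library 1 (0.0679) or 3 (0.121) or without TFEB vehicle library 1 (0.131). Nor was Irf9 called without the 3 libraries left out together (0.118). Adjusted p for Irf9 ran from 0.000316 to 0.131 over 25 alternatives. Irf5, a factor of Toll-like receptor signalling, had 217, 276 and 299 normalized counts in TFEB cells with 4-OHT, against 544, 443 and 511 in TFEB cells with vehicle. Its fall was log2 -0.92 ± 0.16 SE, limma adjusted p = 2.33e-05. Irf8, a lineage factor of B cells and myeloid cells, had 694, 887 and 992 normalized counts in TFEB cells with 4-OHT, against 1394, 1213 and 1373 in TFEB cells with vehicle. It was 1.56-fold lower (log2 -0.64 ± 0.12 SE, limma adjusted p = 0.000105). Both factors kept all 3 4-OHT libraries below all 3 vehicle libraries. Irf1, Irf2 and Stat2 were not called, with log2 changes of 0.01 ± 0.20 SE, 0.03 ± 0.09 SE and 0.22 ± 0.14 SE and limma adjusted p of 0.982, 0.902 and 0.282.

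The genes of both type I interferon receptor chains and of the second interferon gamma receptor chain lie in 1 cluster on chromosome 16, with Ifnar2 at chr16:91372783-91405589, Il10rb at chr16:91406164-91425834, Ifnar1 at chr16:91485238-91507441 and Ifngr2 at chr16:91547072-91565623 (mm10). The neighbours did not move alike. Ifnar2, the high-affinity chain, had 2985, 3106 and 2940.5 normalized counts in TFEB cells with 4-OHT, against 1931, 2332 and 2053 in TFEB cells with vehicle. It was 1.43-fold higher (log2 0.52 ± 0.10 SE, limma adjusted p = 0.000233). Ifnar1, the chain that carries TYK2, had 2232, 1728 and 1721 normalized counts in TFEB cells with 4-OHT, against 1534, 1428 and 1523 in TFEB cells with vehicle. It was 1.26-fold higher (log2 0.33 ± 0.11 SE, limma adjusted p = 0.0221). The Ifnar1 call was not made without TFEB 4-OHT library 1 (0.222) or without TFEB vehicle library 2 (0.0713). Nor was Ifnar1 called with no variance trend (0.0898). Adjusted p for Ifnar1 ran from 0.00638 to 0.222 over 25 alternatives. Il10rb, the receptor chain shared by interleukin-10 and lambda interferon, averaged 744 ± 50.4 with 4-OHT against 343 ± 65.2 with vehicle, log2 1.13 ± 0.18 SE, limma adjusted p = 9.26e-06 (SD, n = 3 each). Ifngr2, the chain that carries JAK2, had 559.6, 564 and 718 normalized counts in TFEB cells with 4-OHT, against 964, 843 and 1019 in TFEB cells with vehicle. It was 1.54-fold lower (log2 -0.62 ± 0.13 SE, limma adjusted p = 0.000353). Its partner Ifngr1, on another chromosome, was not called (log2 -0.03 ± 0.15 SE, limma adjusted p = 0.943).

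Among the 20 tested members listed as interferon-stimulated genes, 2 of the 2'-5' oligoadenylate synthetase family had the largest called rises. Oas2 (chr5:120730333-120749853, mm10), which makes the activator of RNase L, had 50.6, 94.2 and 69.8 normalized counts in TFEB cells with 4-OHT, against 4.28, 0 and 0 in TFEB cells with vehicle. Vector cells had 0, 7.12 and 11 with 4-OHT and 0.737, 3.93 and 0 with vehicle, so Oas2 passed 10 in 4 libraries in all. It was 40.4-fold higher (log2 5.34 ± 1.31 SE, limma adjusted p = 0.00214), and 70.3-fold higher (log2 6.14) without TFEB vehicle library 1. The size of that fold rests on vehicle values near the floor, and with a pseudocount of 10 the change was log2 2.82. As given above, high values in TFEB cells with 4-OHT decided that Oas2 was tested. Oasl1, a family member with ubiquitin-like domains and without synthetase activity, had 277, 327 and 283 normalized counts in TFEB cells with 4-OHT, against 54.8, 29.9 and 65 in TFEB cells with vehicle. It was 6.10-fold higher (log2 2.61 ± 0.64 SE, limma adjusted p = 0.00221). Vector cells had 51.5, 14.2 and 5.07 with 4-OHT and 19.2, 23.6 and 5.23 with vehicle for Oasl1, so the 3 TFEB 4-OHT libraries were above all 9 others. The neighbouring genes Oas1a and Oas3 were not called in this comparison, at log2 1.62 ± 1.08 SE, limma adjusted p = 0.309 and log2 2.31 ± 1.35 SE, limma adjusted p = 0.23. Close copies of Oas1a and Oasl2 exist, and nothing in the labels says how reads that match several copies were counted.

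Adar, which edits adenosines in double-stranded RNA, had 1984, 2303 and 2132 normalized counts in TFEB cells with 4-OHT, against 1123, 899 and 1069 in TFEB cells with vehicle. It was 2.08-fold higher (log2 1.06 ± 0.12 SE, limma adjusted p = 2.94e-08). Parp14, an interferon-stimulated ADP-ribosyltransferase, had 1757, 1568 and 1631 normalized counts in TFEB cells with 4-OHT, against 1187, 1029.8 and 1056 in TFEB cells with vehicle. It was 1.51-fold higher (log2 0.60 ± 0.11 SE, limma adjusted p = 4.99e-05). Eif2ak2 encodes PKR, the kinase that halts translation when it binds double-stranded RNA. It had 2355, 2039 and 2099 normalized counts in TFEB cells with 4-OHT, against 1250.2, 1671 and 1589.7 in TFEB cells with vehicle. It was 1.45-fold higher (log2 0.53 ± 0.11 SE, limma adjusted p = 0.000204). In each of these 3 genes the lowest library with 4-OHT was above the highest with vehicle, and all 6 vector libraries were below it too. Bst2, which tethers budding virus, had 1487, 1809.7 and 1375 normalized counts in TFEB cells with 4-OHT, against 1125, 969 and 1468 in TFEB cells with vehicle. It was 1.32-fold higher (log2 0.40 ± 0.14 SE, limma adjusted p = 0.0302). The vehicle library 3 of TFEB cells was above 4-OHT library 3. The Bst2 call was not made without TFEB 4-OHT library 1 (0.0539) or 2 (0.195) or without TFEB vehicle library 1 (0.09) or 2 (0.21). Nor was Bst2 called with no variance trend (0.188), with edgeR (0.0645), with DESeq2 (0.126) or without the 3 libraries left out together (0.389). Adjusted p for Bst2 ran from 0.00308 to 0.389 over 25 alternatives.

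The guanylate-binding proteins Gbp2 and Gbp3, GTPases that attack membranes around intracellular pathogens, had the largest falls among the members. Their genes are neighbours on chromosome 3, with Gbp2 at chr3:142620602-142638008 and Gbp3 at chr3:142560026-142573209 (mm10), and they are close in sequence. Gbp2 had 144, 278 and 227 normalized counts in TFEB cells with 4-OHT, against 955, 1075 and 874 in TFEB cells with vehicle. It was 4.60-fold lower (log2 -2.20 ± 0.17 SE, limma adjusted p = 3.53e-12). Vector cells had 1182, 1394 and 1042 with 4-OHT and 1236, 1620.3 and 1542 with vehicle. Gbp3 had 497, 370.5 and 451 normalized counts in TFEB cells with 4-OHT, against 1471, 1647 and 1714 in TFEB cells with vehicle. It was 3.68-fold lower (log2 -1.88 ± 0.11 SE, limma adjusted p = 1.63e-14). Its level in vector cells was 2210.4, 1876 and 1771 with 4-OHT and 1839.9, 1843 and 1913 with vehicle, so every TFEB 4-OHT library of both genes was below all 9 others.

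The other 12 tested interferon-stimulated genes were not called in TFEB cells with 4-OHT: Isg15, Isg20, Ifit2, Mx1, Mx2, Oas1a, Oas3, Rtp4, Ifi35, Trim25, Parp9 and Xaf1. Classical members of the response were among them. Isg15, the ubiquitin-like modifier, had 87.2, 45.2 and 23.3 normalized counts in TFEB cells with 4-OHT, against 20.6, 24.5 and 58.1 in TFEB cells with vehicle, and the groups overlapped (log2 0.53 ± 0.70 SE, limma adjusted p = 0.67). Ifit2, a protein that binds viral RNA, had 19.4, 114 and 64 normalized counts in TFEB cells with 4-OHT, against 76.3, 83.2 and 158 in TFEB cells with vehicle (log2 -0.92 ± 0.48 SE, limma adjusted p = 0.17). Its lowest value in TFEB cells was thus in a 4-OHT library. Mx2 and Rtp4 were higher in all 3 4-OHT libraries but missed the threshold, at log2 2.11 ± 1.16 SE, limma adjusted p = 0.196 and log2 3.42 ± 1.47 SE, limma adjusted p = 0.0874. In C57BL/6 mice Mx1 and Mx2 are known to carry defective alleles, and Mx1 was at 0 to 22.1 normalized counts over the 12 libraries.

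The 7 members below the minimum had few reads in every group. Usp18, the protease that removes ISG15 and limits receptor signalling, had 7.53, 40.01 and 0 normalized counts in TFEB cells with 4-OHT, against 1.71, 0 and 11.1 in TFEB cells with vehicle, and 0 in all 6 vector libraries. Ifit1, which also binds viral RNA, had 12.9, 25.8 and 2.91 normalized counts in TFEB cells with 4-OHT, against 1.71, 0 and 0 in TFEB cells with vehicle, and 0, 9.49 and 0 in vector cells with 4-OHT and 0, 0 and 0 in vector cells with vehicle. Rsad2, the antiviral enzyme viperin, had 0, 19.4 and 16.5 normalized counts in TFEB cells with 4-OHT, against 0, 0 and 0 in TFEB cells with vehicle, and 3.22, 9.49 and 8.45 in vector cells with 4-OHT and 0, 1.57 and 0 in vector cells with vehicle. The highest value of each of these 3 genes was in TFEB 4-OHT library 2, the library with the most genes with reads. Ifi44 had 0, 14.2 and 8.73 normalized counts in TFEB cells with 4-OHT, against 5.14, 0 and 27.6 in TFEB cells with vehicle, and 0, 3.56 and 0 in vector cells with 4-OHT and 2.21, 0 and 0 in vector cells with vehicle. Ifit3 had 0, 9.04 and 0 normalized counts in TFEB cells with 4-OHT, against 0, 0 and 18 in TFEB cells with vehicle, and 0, 16.6 and 0 in vector cells with 4-OHT and 2.21, 1.57 and 0 in vector cells with vehicle. The highest values of both were in TFEB vehicle library 3. Oasl2 had 8.61, 2.58 and 9.7 normalized counts in TFEB cells with 4-OHT, against 0, 0 and 12.4 in TFEB cells with vehicle, and 0, 0 and 0 in vector cells with 4-OHT and 7.37, 0.787 and 17.4 in vector cells with vehicle. Tlr3, the endosomal receptor of double-stranded RNA, had 0, 0 and 7.76 normalized counts in TFEB cells with 4-OHT, against 0, 4.27 and 0 in TFEB cells with vehicle, and 0, 24.9 and 7.61 in vector cells with 4-OHT and 2.95, 0.787 and 0 in vector cells with vehicle. In TFEB cells the 4-OHT and vehicle libraries of these last 4 genes overlapped, as did those of Usp18. Rsad2 was at 0 in 1 of the 4-OHT libraries, like the vehicle libraries. For Ifit1 the lowest 4-OHT library was at 2.91 and the highest vehicle library at 1.71. Summed over the 7 genes, the libraries of TFEB cells with 4-OHT had 29.1, 111 and 45.6 normalized counts, those of TFEB cells with vehicle 8.57, 4.27 and 69.1, those of vector cells with 4-OHT 3.22, 64.1 and 16.1 and those of vector cells with vehicle 14.7, 4.72 and 17.4. The highest sums in both 4-OHT groups were in the library with the most genes with reads of that group. Of 11 interferon genes in the table (Ifnb1, Ifng, and alpha, kappa, epsilon and lambda members), 0 passed the minimum, Ifna5 and Ifne were at 0 in every library, and the highest value was 9.68, of Ifnl3 in TFEB vehicle library 3.

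**Figure D2:**
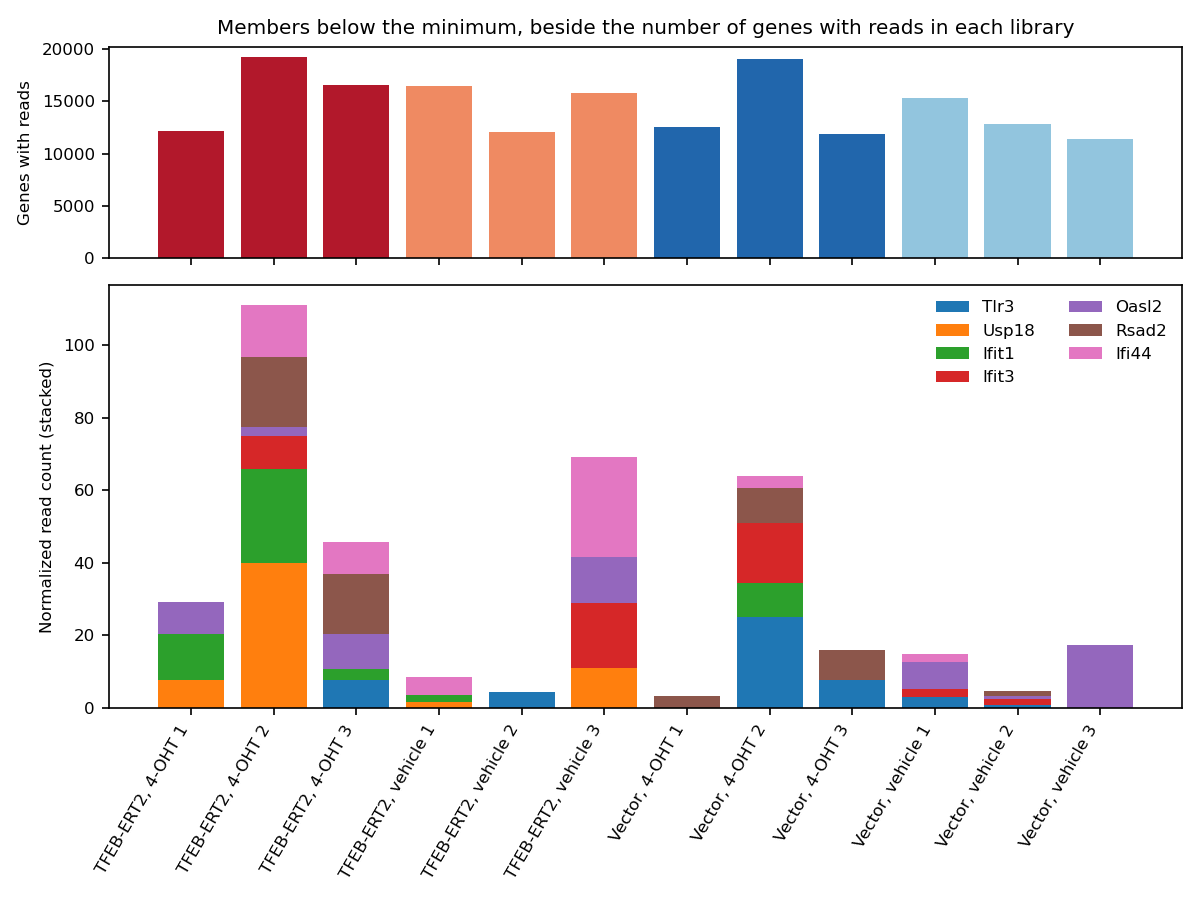
Summed normalized read counts of the 7 members below the minimum in each of the 12 libraries, stacked by gene, with TFEB cells with 4-OHT at the left and vector cells with vehicle at the right. TFEB 4-OHT library 2 has the highest sum (111) and vector 4-OHT library 1 the lowest (3.22).

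Vector cells show how these genes respond to 4-OHT without the fusion. Of the 39 members, 0 rose and 0 fell in vector cells with 4-OHT (limma), 1 had an unadjusted p under 0.05 (Tlr9), and the lowest adjusted p was 0.583, of Tlr9 (log2 0.74 ± 0.27 SE, limma adjusted p = 0.583). Over all tested genes 0% rose and 0.0153% fell (2 genes). edgeR and DESeq2 on whole reads also called 0 members. Tlr9 was 277, 131 and 221 in vector cells with 4-OHT and 167, 116 and 87.1 in vector cells with vehicle, so the lowest 4-OHT library, at 131, was below the highest vehicle library.

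Whether the response to 4-OHT differed between the lines was tested by an interaction term. It was more positive in TFEB than in vector cells for 7 members and more negative for 5. Over all tested genes it was more positive for 7.75% and more negative for 8.01%. Ifih1 had the largest called positive difference (log2 3.80 ± 1.26 SE, limma adjusted p = 0.0362). That of Ddx58 was next among the called members (log2 1.04 ± 0.30 SE, limma adjusted p = 0.014). Adar differed by log2 0.84 ± 0.17 SE, limma adjusted p = 0.000558. The receptor chains differed as well, Ifnar2 by log2 0.67 ± 0.15 SE, limma adjusted p = 0.00123 and Ifnar1 by log2 0.53 ± 0.15 SE, limma adjusted p = 0.0147. Parp14 (log2 0.52 ± 0.15 SE, limma adjusted p = 0.0158) and Eif2ak2 (log2 0.46 ± 0.15 SE, limma adjusted p = 0.0314) made up the 7. On the negative side, Gbp3 (log2 -1.94 ± 0.16 SE, limma adjusted p = 7e-11) and Gbp2 (log2 -1.92 ± 0.23 SE, limma adjusted p = 2.16e-07) differed most. Tmem173 differed by log2 -1.05 ± 0.18 SE, limma adjusted p = 4.86e-05. Irf5 (log2 -0.76 ± 0.22 SE, limma adjusted p = 0.0148) and Irf8 (log2 -0.60 ± 0.17 SE, limma adjusted p = 0.0133) made up the 5. The 9 other members called in TFEB cells were Tlr7, Tlr9, Irf3, Irf7, Irf9, Ifngr2, Oas2, Oasl1 and Bst2. Their interaction terms were not called, with limma adjusted p of 0.0747 (Oasl1) to 0.723 (Tlr7). Those of Oas2 (log2 4.17 ± 1.86 SE) and Irf7 (log2 2.31 ± 1.76 SE) had wide errors. A response in TFEB cells and none called in vector cells is thus not shown to differ between the lines for these 9. The 5 calls of Tmem173, Ifnar2, Gbp2, Gbp3 and Adar were made under all 24 alternatives run for the interaction.

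The remaining 7 interaction calls depended on single libraries or settings. Without TFEB 4-OHT library 1, 2 members had a more positive and 3 a more negative response, and without the 3 libraries left out together 4 and 3 did. The Ifih1 difference was log2 2.55 without TFEB vehicle library 3, 4.68 without TFEB vehicle library 2, 4.52 without vector vehicle library 1 and 3.02 without vector vehicle library 3. The Ifih1 call was not made without TFEB 4-OHT library 1 (0.0783), 2 (0.0639) or 3 (0.0943), without TFEB vehicle library 3 (0.0976), without vector 4-OHT library 1 (0.0543), 2 (0.0584) or 3 (0.06) or without vector vehicle library 2 (0.0564) or 3 (0.15). Nor was Ifih1 called with a pseudocount of 0.5 (0.0525), with no filter on low values (0.156), with no variance trend (0.149) or without the 3 libraries left out together (0.117). Adjusted p for Ifih1 ran from 0.00198 to 0.156 over 24 alternatives. The Ddx58 call was not made without TFEB 4-OHT library 1 (0.0563). Nor was Ddx58 called with no variance trend (0.0507) or without the 3 libraries left out together (0.0512). Adjusted p for Ddx58 ran from 0.00195 to 0.0563 over 24 alternatives. The Irf5 call was not made without TFEB 4-OHT library 1 (0.0558) or without vector vehicle library 3 (0.0515). Nor was Irf5 called without the 3 libraries left out together (0.0742). Adjusted p for Irf5 ran from 0.00201 to 0.0742 over 24 alternatives. The Irf8 call was not made without TFEB 4-OHT library 1 (0.0687). Nor was Irf8 called with no variance trend (0.093) or without the 3 libraries left out together (0.109). Adjusted p for Irf8 ran from 0.00474 to 0.109 over 24 alternatives. The Ifnar1 call was not made without TFEB 4-OHT library 1 (0.0809). Nor was Ifnar1 called with no variance trend (0.0924). Adjusted p for Ifnar1 ran from 0.0034 to 0.0924 over 24 alternatives. The Eif2ak2 call was not made without TFEB 4-OHT library 1 (0.106) or 3 (0.0504), without TFEB vehicle library 1 (0.127), without vector 4-OHT library 2 (0.0692) or without vector vehicle library 1 (0.0823) or 3 (0.0782). Nor was Eif2ak2 called with no variance trend (0.132), with edgeR (0.0567) or without the 3 libraries left out together (0.188). Adjusted p for Eif2ak2 ran from 0.00379 to 0.188 over 24 alternatives. The Parp14 call was not made without TFEB 4-OHT library 1 (0.0535) or without vector 4-OHT library 1 (0.062). Nor was Parp14 called with no variance trend (0.0553). Adjusted p for Parp14 ran from 0.00263 to 0.062 over 24 alternatives.

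**Figure D3:**
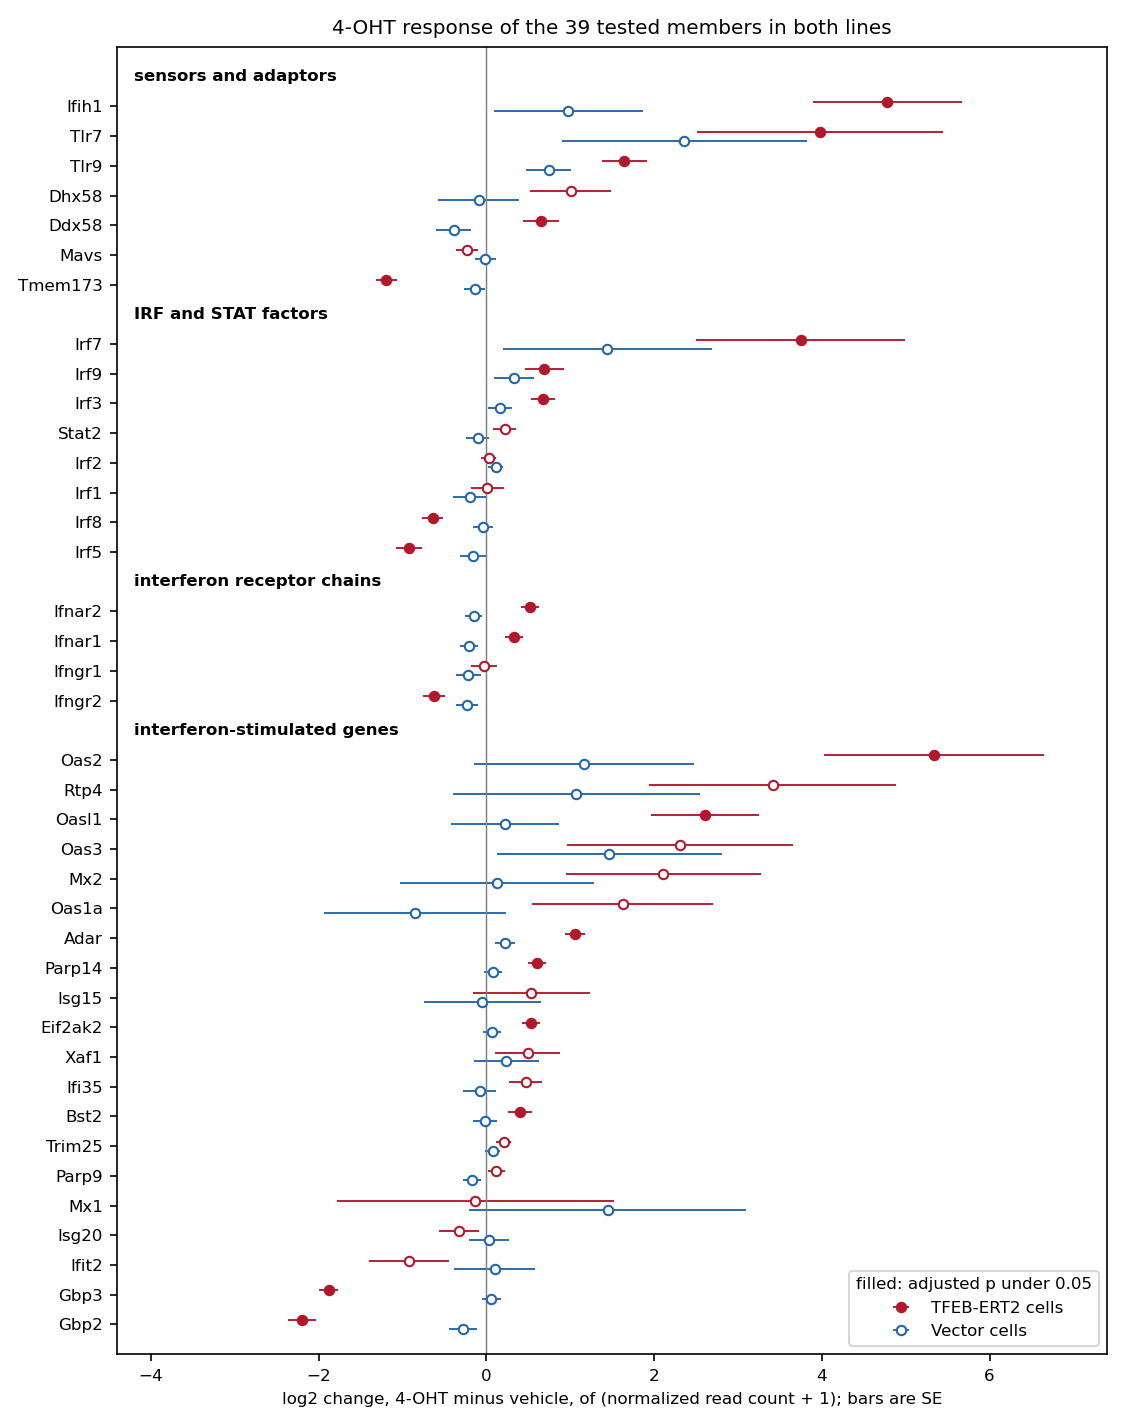
Log2 change with 4-OHT (horizontal axis, with standard errors) of each tested member, with the members listed by role on the vertical axis. Colour gives the line, with TFEB cells drawn above vector cells, and filled points passed the threshold in that line. In vector cells the change stays between -0.85 and 2.36 on the log2 scale, whereas in TFEB cells it runs from -2.20 to 5.34.

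With vehicle and no ligand, TFEB and vector cells differed in few of these genes. Of 39 members, 2 were higher and 1 lower in TFEB cells, against 2.89% and 2.49% of all tested genes. Isg20, an RNA exonuclease, had 337, 335 and 429.9 normalized counts in TFEB cells with vehicle, against 148, 96.8 and 129 in vector cells with vehicle. Isg20 was 2.96-fold higher (log2 1.56 ± 0.24 SE, limma adjusted p = 4.66e-05). Oas1a had 24.0, 14.9 and 44.2 in TFEB cells with vehicle, against 0.737, 2.36 and 0 in vector cells with vehicle (log2 3.86 ± 1.08 SE, limma adjusted p = 0.0293). Gbp2 was 1.51-fold lower (log2 -0.59 ± 0.17 SE, limma adjusted p = 0.0285), with 955, 1075 and 874 in TFEB cells and 1236, 1620 and 1542 in vector cells, all with vehicle. Isg20 and Oas1a were thus already called between the lines without 4-OHT. The Isg20 call was made under all 25 alternatives, whereas that of Oas1a was lost under 11 of 24. The count of higher members was 1 without TFEB 4-OHT library 1 or 3, TFEB vehicle library 2 or 3, or vector vehicle library 2, and that of lower members was 0 without TFEB vehicle library 1 or 3, or vector vehicle library 2 or 3. The Oas1a call was not made without TFEB 4-OHT library 1 (0.0536) or 3 (0.0595), without TFEB vehicle library 1 (0.0807), 2 (0.0537) or 3 (0.104) or without vector vehicle library 1 (0.0766), 2 (0.0534) or 3 (0.121). Nor was Oas1a called with no filter on low values (0.186), with only the groups compared (0.0539) or without the 3 libraries left out together (0.0585). Adjusted p for Oas1a ran from 0.000158 to 0.186 over 24 alternatives. The Gbp2 call was not made without TFEB vehicle library 1 (0.0731) or 3 (0.108) or without vector vehicle library 2 (0.152) or 3 (0.137). Nor was Gbp2 called with no variance trend (0.263) or without the 3 libraries left out together (0.0804). Adjusted p for Gbp2 ran from 0.00272 to 0.263 over 25 alternatives.

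With 4-OHT in both lines, 18 members were higher and 4 lower in TFEB cells, against 13.6% and 13.5% of all tested genes, and the median log2 difference was 0.66 over the members and 0.05 over all tested genes. Irf7, Oas2 and Rtp4, 3 of the 18, reached the minimum only with the help of the TFEB 4-OHT libraries, and of the 34 members that did without them 15 were higher and 4 lower, against 14.8% and 15.3% of such genes. The comparison shares its TFEB 4-OHT libraries with the comparison against vehicle, and it called 5 members that were not called there: Isg20, Oas1a, Stat2, Mx2 and Rtp4. Oas1a had 107, 98.1 and 48.5 normalized counts in TFEB cells with 4-OHT, against 0, 0 and 0 in vector cells with 4-OHT. Against the limit that a count of 0 allows in a library (3 reads, highest of the vector libraries), it was at least 23.7-fold higher. That limit covers counting error only, not the spread between libraries. The fitted difference was log2 6.34 ± 1.08 SE, limma adjusted p = 2.54e-05. Stat2, the partner of IRF9, had 945, 811 and 784 normalized counts in TFEB cells with 4-OHT, against 546, 769 and 509.8 in vector cells with 4-OHT. It was 1.41-fold higher (log2 0.49 ± 0.14 SE, limma adjusted p = 0.0072). Mx2 had 50.6, 41.3 and 53.4 normalized counts in TFEB cells with 4-OHT, against 6.44, 0 and 14.4 in vector cells with 4-OHT, with log2 3.34 ± 1.16 SE, limma adjusted p = 0.0298. Rtp4, an interferon-stimulated gene whose protein was first described as a chaperone of receptors, had 32.3, 45.2 and 33 normalized counts in TFEB cells with 4-OHT, against 0, 8.3 and 0 in vector cells with 4-OHT, with log2 4.15 ± 1.47 SE, limma adjusted p = 0.0341. Isg20 differed by log2 1.21 ± 0.24 SE, limma adjusted p = 0.000222, against log2 1.56 with vehicle.

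Other members that were higher in TFEB cells in this comparison were Irf7 (log2 4.69 ± 1.25 SE, limma adjusted p = 0.00435), Oasl1 (log2 4.13 ± 0.64 SE, limma adjusted p = 6.52e-06), Oas2 (log2 3.94 ± 1.31 SE, limma adjusted p = 0.0237), Ifih1 (log2 2.90 ± 0.89 SE, limma adjusted p = 0.0138), Tlr9 (log2 1.70 ± 0.27 SE, limma adjusted p = 7.23e-06) and Ddx58 (log2 1.10 ± 0.21 SE, limma adjusted p = 0.00013). Ifnar2, Ifnar1, Adar, Irf9, Parp14, Eif2ak2 and Bst2 were also higher, with log2 differences of 0.51 to 1.01. The 4 lower members were Gbp2 (log2 -2.52 ± 0.17 SE, limma adjusted p = 1.45e-13), Gbp3 (log2 -2.15 ± 0.11 SE, limma adjusted p = 5.52e-16), Irf5 (log2 -1.14 ± 0.16 SE, limma adjusted p = 7.71e-07) and Tmem173 (log2 -1.04 ± 0.13 SE, limma adjusted p = 7.64e-08). Tlr7, Irf3, Irf8 and Ifngr2, all called against vehicle, were not called against vector cells with 4-OHT: Irf3 differed by log2 0.10 ± 0.15 SE and Ifngr2 by log2 -0.05 ± 0.13 SE, with limma adjusted p of 0.714 and 0.837. For those 2 genes it was the vehicle libraries of TFEB cells that lay apart from the other groups, lower for Irf3 and higher for Ifngr2.

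**Figure D4:**
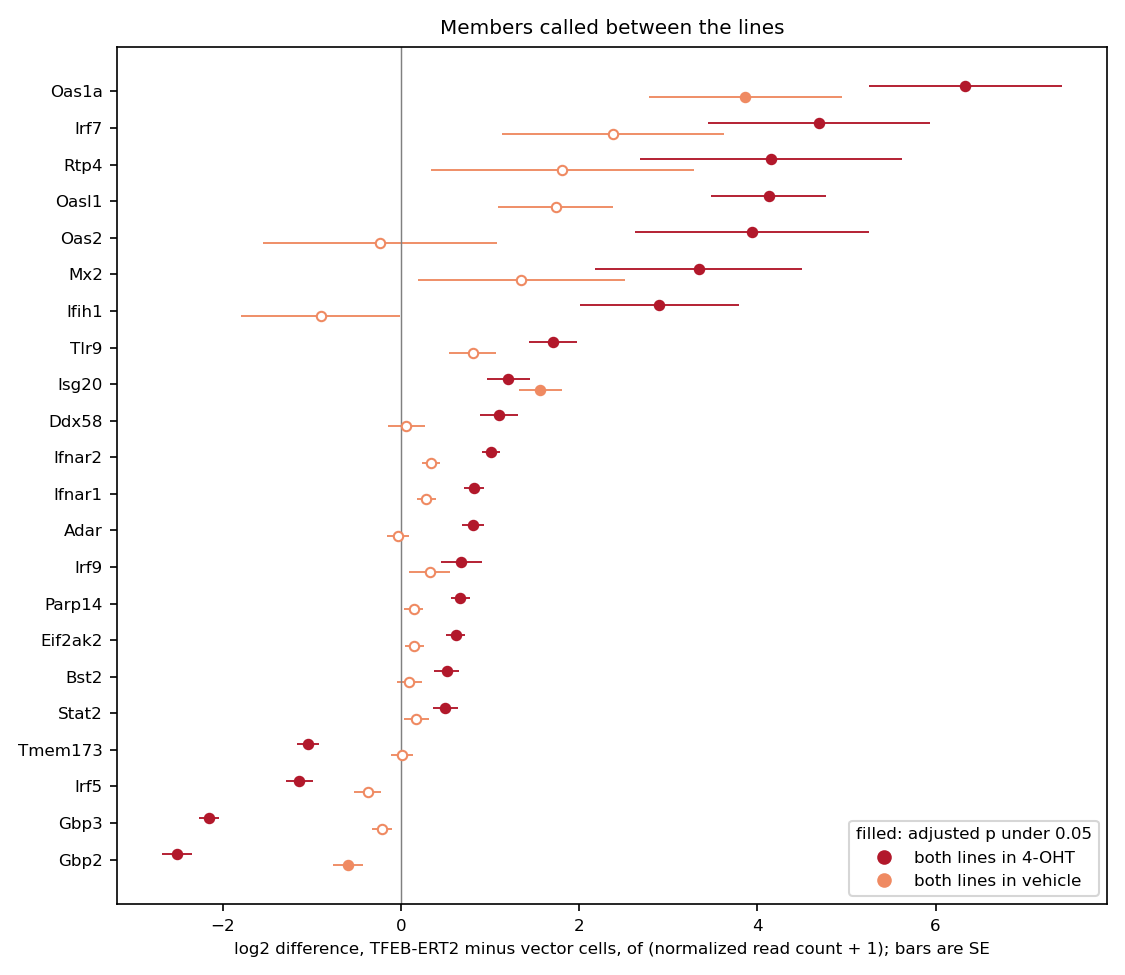
Log2 difference between TFEB and vector cells (horizontal axis, with standard errors) of the 22 members called in either comparison of the lines, with both lines with 4-OHT drawn above both lines with vehicle; filled points passed the threshold. Oas1a and Isg20 are filled and right of 0 in both, and Gbp2 is filled and left of 0 in both.

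The 7 calls of this comparison that a setting ended were these. The Ifih1 call was not made without TFEB 4-OHT library 3 (0.0614). Nor was Ifih1 called with no filter on low values (0.0736), with no variance trend (0.0795) or without the 3 libraries left out together (0.101). Adjusted p for Ifih1 ran from 3.46e-05 to 0.101 over 25 alternatives. The Irf9 call was not made without TFEB 4-OHT library 1 (0.0739) or 3 (0.13) or without vector 4-OHT library 1 (0.08) or 2 (0.0836). Nor was Irf9 called without the 3 libraries left out together (0.076). Adjusted p for Irf9 ran from 0.00275 to 0.13 over 25 alternatives. The Stat2 call was not made without TFEB 4-OHT library 1 (0.0584) or without vector 4-OHT library 3 (0.0604). Adjusted p for Stat2 ran from 0.000452 to 0.0604 over 25 alternatives. The Mx2 call was not made without TFEB 4-OHT library 1 (0.0837), 2 (0.0572) or 3 (0.0976) or without vector 4-OHT library 2 (0.157). Nor was Mx2 called with no filter on low values (0.139), with no variance trend (0.0937), with edgeR (0.261) or without the 3 libraries left out together (0.249). Adjusted p for Mx2 ran from 0.00614 to 0.261 over 24 alternatives. The Oas2 call was not made without TFEB 4-OHT library 1 (0.0555), 2 (0.0798) or 3 (0.089) or without vector 4-OHT library 1 (0.152). Nor was Oas2 called with a minimum value of 50 (0.0628), with no filter on low values (0.0847), with edgeR (0.137) or without the 3 libraries left out together (0.0583). Adjusted p for Oas2 ran from 0.000421 to 0.152 over 25 alternatives. The Rtp4 call was not made without TFEB 4-OHT library 1 (0.0859), 2 (0.0876) or 3 (0.104) or without vector 4-OHT library 1 (0.12) or 3 (0.111). Nor was Rtp4 called with no filter on low values (0.0536), with the replicate block (0.0515), with edgeR (0.25) or with DESeq2 (0.0902). Adjusted p for Rtp4 ran from 0.00541 to 0.25 over 24 alternatives. The Bst2 call was not made without TFEB 4-OHT library 2 (0.0611). Nor was Bst2 called with no variance trend (0.0997) or without the 3 libraries left out together (0.156). Adjusted p for Bst2 ran from 0.000643 to 0.156 over 25 alternatives. The other 15 calls were made under every alternative that tested the gene, which was 24 for Oas1a, not tested with a minimum value of 50, and 25 for the other 14. Leaving out a vector 4-OHT library moved 5 differences by over 1.5 times. Irf7 was at log2 3.74 without library 2, and at 3.95 without the 3 libraries left out together. Mx2 was at 2.20 without library 2, 4.17 without library 3 and 2.31 without the 3 together. Oas2 was at 2.83 without library 1 and 4.63 without library 3, and Oasl1 was at 4.94 without library 1 and 3.39 without library 3. Rtp4 was at 5.22 without library 2 and 5.07 without the 3 together.

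The 13 tested members that no comparison called were Dhx58, Mavs, Irf1, Irf2, Ifngr1, Isg15, Ifit2, Mx1, Oas3, Ifi35, Trim25, Parp9 and Xaf1. Their log2 differences over the 5 comparisons ran from -1.58 to 3.17, with adjusted p of 0.0503 to 0.996. The lowest p was that of Xaf1, an interferon-stimulated binder of the apoptosis inhibitor XIAP, in TFEB against vector cells with 4-OHT (log2 1.02 ± 0.39 SE, limma adjusted p = 0.0503), with 158, 148 and 133 normalized counts in TFEB cells with 4-OHT, against 119, 73.6 and 41.4 in vector cells with 4-OHT.

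Genes around the members were taken from 6 lists of the pathway, of which the interferon genes are given above. Among 16 tested receptor kinases, STATs and inhibitors of the receptors, 5 rose (31.2%) and 3 fell (18.8%) in TFEB cells with 4-OHT, with a median log2 change of 0.20. Over all tested genes, the background for this and the next lists, 13.7% rose and 13.9% fell. Ptpn1, a phosphatase of JAK2 and TYK2, averaged 3943 ± 276 with 4-OHT against 1584 ± 54.9 with vehicle, log2 1.31 ± 0.09 SE, limma adjusted p = 3.17e-13 (SD, n = 3 each, here and below). The feedback inhibitors Socs3 (58.8 ± 18.8 with 4-OHT against 271 ± 58.6 with vehicle, log2 -2.21 ± 0.27 SE, limma adjusted p = 7.76e-08) and Socs1 (219.7 ± 66.2 with 4-OHT against 413 ± 43.4 with vehicle, log2 -0.94 ± 0.20 SE, limma adjusted p = 0.000366) fell. The kinases of the type I receptor did not move alike, since Tyk2 rose (613 ± 40.2 with 4-OHT against 414 ± 72.8 with vehicle, log2 0.58 ± 0.17 SE, limma adjusted p = 0.00783) and Jak1 fell (3267 ± 237 with 4-OHT against 4458 ± 479.8 with vehicle, log2 -0.45 ± 0.09 SE, limma adjusted p = 0.000236). The Tyk2 call was not made without TFEB vehicle library 2 (0.0685). Adjusted p for Tyk2 ran from 0.00225 to 0.0685 over 25 alternatives.

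Of 29 tested sensors, adaptors and kinases outside the members (32 listed), 11 rose (37.9%) and 2 fell (6.9%), with a median log2 change of 0.26. Myd88, the adaptor of TLR7 and TLR9, averaged 674 ± 102 with 4-OHT against 282 ± 39.1 with vehicle, log2 1.25 ± 0.18 SE, limma adjusted p = 1.6e-06, and Irak2, a kinase downstream of it, averaged 452 ± 76.8 with 4-OHT against 17 ± 19.7 with vehicle, log2 5.79 ± 0.81 SE, limma adjusted p = 1.02e-06. The change of Irak2 was log2 6.94 without TFEB vehicle library 1, 4.28 without TFEB vehicle library 2 and 6.96 without the 3 libraries left out together. Slc15a4, a lysosomal transporter needed for TLR7 and TLR9 signalling, averaged 705 ± 23.6 with 4-OHT against 422 ± 73.4 with vehicle, log2 0.75 ± 0.15 SE, limma adjusted p = 0.000164. Tlr4, the surface receptor of lipopolysaccharide, fell (197 ± 40.5 with 4-OHT against 361 ± 23.8 with vehicle, log2 -0.89 ± 0.20 SE, limma adjusted p = 0.000879). The cytosolic DNA sensor cGAS, listed as Mb21d1, averaged 208 ± 12.5 with 4-OHT against 104 ± 43.3 with vehicle, log2 1.07 ± 0.31 SE, limma adjusted p = 0.00948. The Mb21d1 call was not made without TFEB vehicle library 2 (0.0748). Nor was Mb21d1 called without the 3 libraries left out together (0.0775). Adjusted p for Mb21d1 ran from 0.00149 to 0.0775 over 25 alternatives. Among 16 tested nucleases that limit self nucleic acid (18 listed), 3 rose and 3 fell (18.8% each), with a median log2 change of 0.06. The lysosomal nucleases Dnase2a (445 ± 74.9 with 4-OHT against 129 ± 39.7 with vehicle, log2 1.81 ± 0.34 SE, limma adjusted p = 0.00011) and Pld3 (591 ± 8.9 with 4-OHT against 242 ± 45.9 with vehicle, log2 1.30 ± 0.19 SE, limma adjusted p = 1.41e-06) rose. Pld4, the relative of Pld3 in endosomes and lysosomes, fell (71.8 ± 21.8 with 4-OHT against 156 ± 39.3 with vehicle, log2 -1.13 ± 0.31 SE, limma adjusted p = 0.00499), as did Rnaseh2a, a subunit of RNase H2 (933 ± 27.3 with 4-OHT against 1358 ± 190.1 with vehicle, log2 -0.53 ± 0.11 SE, limma adjusted p = 0.000432). The Pld4 call was not made without the 3 libraries left out together (0.06). Adjusted p for Pld4 ran from 0.000332 to 0.06 over 25 alternatives.

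Among 8 tested IRF relatives and partners (11 listed), 2 rose (25.0%) and 1 fell (12.5%), with a median log2 change of 0.23. These were Irf2bp2, a binding partner of IRF2 (4552 ± 48.2 with 4-OHT against 1602 ± 133 with vehicle, log2 1.51 ± 0.10 SE, limma adjusted p = 9.32e-14), Batf, a factor that binds DNA with IRF4 and IRF8 (358 ± 72.6 with 4-OHT against 144 ± 35.7 with vehicle, log2 1.32 ± 0.25 SE, limma adjusted p = 0.000124), and Spib, a B cell factor that does so too (1044 ± 33.3 with 4-OHT against 1419 ± 96.5 with vehicle, log2 -0.44 ± 0.09 SE, limma adjusted p = 0.000503). Among 59 other interferon-stimulated genes tested (70 listed), 8 rose (13.6%) and 11 fell (18.6%), with a median log2 change of 0.26, and the share that rose was near that of all tested genes (13.7%). The largest rise was that of Lgals3bp, a secreted glycoprotein (1954 ± 212 with 4-OHT against 121 ± 14.3 with vehicle, log2 4.00 ± 0.25 SE, limma adjusted p = 3.8e-14), followed by Cd274, which encodes PD-L1 (459 ± 40.2 with 4-OHT against 174 ± 23.3 with vehicle, log2 1.40 ± 0.31 SE, limma adjusted p = 0.000678). Ifitm1, which restricts viral entry, fell (16.6 ± 10.2 with 4-OHT against 138 ± 17.3 with vehicle, log2 -3.12 ± 0.41 SE, limma adjusted p = 3.42e-07). The guanylate-binding proteins Gbp5 (106 ± 36.8 with 4-OHT against 373 ± 52.9 with vehicle, log2 -1.85 ± 0.22 SE, limma adjusted p = 5.24e-08), Gbp9 (106 ± 24.3 with 4-OHT against 336 ± 47.6 with vehicle, log2 -1.68 ± 0.22 SE, limma adjusted p = 3.89e-07) and Gbp4 (70.3 ± 14 with 4-OHT against 172 ± 9.41 with vehicle, log2 -1.29 ± 0.27 SE, limma adjusted p = 0.000369) also fell, which is the direction of Gbp2 and Gbp3, while Gbp9 and Gbp4 lie on chromosome 5 and share part of their annotated span, so that the split of shared reads between them is uncertain.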

How the data were processed

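Libraries were made from total RNA with NuGEN's Ovation kit for mouse, per the labels' protocols. The authors deposited a signal per gene and library: normalized read counts, in which each library's counts are divided by a single size factor, as the values show. The submitters' processing notes name mm10 together with DESeq2 1.6.3, HTSeq 0.6.1 and STAR 2.5.3. Annotation, strand setting and the handling of reads shared by gene copies are not stated there. Whole reads were recovered, since each value above 0 (100%) equalled a whole number of reads to within 0.001. Chi-square per degree of freedom between libraries of 1 group was 7.88 to 25.5.

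The log2 of each value plus a pseudocount of 1 was fitted with limma 3.58.1 (R 4.3.3), using 1 mean for each group of the 12 libraries and a variance trend over 13111 genes with at least 10 in at least 3 libraries. P-values were adjusted over those genes (Benjamini-Hochberg), with a threshold of 0.05. Alternatives were edgeR 4.0.16 (quasi-likelihood) and DESeq2 1.42.0 on whole reads, other pseudocounts, minimum values, scalings and weights, a replicate block, and leaving out libraries. The fit was also tested on simulated data, as a check of its working only. Genes changed there lay above the minimum and all genes had the same spread setting. The check therefore does not bear on calls of genes near the minimum. Locations are from GENCODE's annotation of mm10 and promoters from RefSeq. The members, lists and rules were chosen with earlier results of these data known. The rule for named genes took up to 10 called rises and falls of the members per comparison and up to 5 per direction from each other list, of which some are named. Tmem173 is given without its location.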

Additional observations from a re-analysis of the deposited data

Results flagged for a closer look

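In 12 members the change with 4-OHT differed between TFEB and vector cells by the interaction term of the fit, and each is given here as the log2 change in TFEB cells minus that in vector cells. The difference was positive for Ifih1 (3.80), Ddx58 (1.04), Adar (0.84), Ifnar2 (0.67), Ifnar1 (0.53), Parp14 (0.52) and Eif2ak2 (0.46). It was negative for Gbp3 (-1.94), Gbp2 (-1.92), Tmem173 (-1.05), Irf5 (-0.76) and Irf8 (-0.60). Over all tested genes, a positive difference was called for 7.75% and a negative one for 8.01%. Among the 12, Ifih1 had a standard error of 1.26 and rested on libraries with few reads outside TFEB cells in 4-OHT. Its call and those of Ddx58, Irf5, Irf8, Ifnar1, Eif2ak2 and Parp14 were each lost under at least 1 alternative.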

How the results depend on the processing

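Over the 5 comparisons, 36 of 58 calls of members were made under every alternative run (24 or 25 for each call), 22 were lost under at least 1, and 0 changed direction. In TFEB cells with 4-OHT, leaving out 1 library in turn gave 9 to 15 risen and 6 to 7 fallen members. In vector cells it gave 0 and 0. For the difference in response it gave 2 to 7 members with a more positive and 3 to 5 with a more negative response in TFEB cells. For TFEB against vector cells it gave 1 to 3 higher and 0 to 1 lower members in vehicle, and 13 to 20 higher and 4 to 5 lower members in 4-OHT. Without a variance trend the more positive responses numbered 2 and the members lower in vehicle 0. Without TFEB 4-OHT library 2, vector 4-OHT library 2 and TFEB vehicle library 1 together, the more positive responses numbered 4 and the more negative ones 3. The members lower in vehicle then numbered 0. Members higher in vehicle numbered 1 with a minimum value of 50, with no filter and with only the groups compared, 4 with array weights and 5 with DESeq2, which called 2 lower. Over all tested genes, 3611 were called in TFEB cells with 4-OHT by limma, 3400 by edgeR and 4146 by DESeq2, 2, 0 and 48 in vector cells with 4-OHT, and 705, 646 and 1214 between the lines in vehicle. The cause of these shifts was not tested. The labels give the groups the same replicate numbers, but over 18 same-numbered pairs the correlation of deviations was -0.115 to 0.165 (median 0.00722), 4 of 12 libraries correlated best with their own number, and the samples were not taken as paired. With the replicate block, 14 members rose and 6 fell in TFEB cells with 4-OHT, 7 and 5 differed in response, and 17 and 4 differed between the lines in 4-OHT. With a pseudocount of 10, the log2 changes of Ifih1, Tlr7, Irf7 and Oas2 in TFEB cells with 4-OHT were 3.25, 1.82, 2.40 and 2.82. Depth limits the members near 10 normalized counts, where 1 read is worth 0.737 to 1.38. Other scalings moved the median of all genes by less than 0.1 on the log2 scale. Of 34 called genes of the other lists, 27 were called under every alternative and 0 changed direction.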
